A study of Mus musculus with 6 samples.

Results

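General capillary (gCap) endothelial cells of the postnatal mouse lung were examined in 4 single-cell libraries at P21. One pair compared Bdnf iPCKO lungs with their Bdnf lox/lox controls, and the other Hgf iPCKO lungs with Hgf lox/lox controls. The cells were selected on measured values. A cell needed at least 1500 unique molecular identifiers (UMIs, 1 per captured transcript) in the Bdnf libraries or 700 in the Hgf libraries, and at most 25% of UMIs from mitochondrial genes. It further needed at least 2 of the endothelial genes Pecam1, Cldn5, Egfl7 and Tie1 and at least 2 of the 5 gCap markers Gpihbp1, Kit, Aplnr, Sema3c and Glp1r. At most 1 UMI was allowed in total over Car4, Ednrb, Fibin, Gja5, Bmx, Slc6a2 and Prox1, genes of other endothelial cells, and at most 1 over Col1a2, Ptprc, Etv5 and Rtkn2, genes of other lineages. In all, 9001 of 70426 lung cells met these criteria.

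The alveolar capillary bed of the lung contains at least a pair of endothelial cell types. Aerocytes (aCap cells) are large and branched and line the thin side of the gas exchange surface, whereas gCap cells regulate vessel tone and act as progenitors in homeostasis and repair. Pericytes lie against the same capillaries and are known as a source of growth factors. The receptor of BDNF is TrkB, encoded by Ntrk2, and that of HGF is MET.

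Each library pooled cells of 2 mice of 1 genotype after magnetic depletion of CD45+ leukocytes and Ter119+ erythroid cells. All mice had received 50 µg tamoxifen daily from P1 to P3. In iPCKO mice the floxed Bdnf or Hgf gene was deleted by Pdgfrb(BAC)-CreERT2, a transgene that is active in pericytes and other mural cells. Control mice carried the floxed alleles without the transgene, so that the deletion and the presence of the transgene cannot be told apart. The sex of the mice is not given per library. With 1 library per genotype no comparison has a replicate, no test was run, and every interval below covers counting error alone. Values are listed in the order Bdnf control, Bdnf iPCKO, Hgf control and Hgf iPCKO unless stated. The series holds 2 further libraries, from P12 cerebral cortex, which were not used here.

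The 4 libraries yielded 1872, 2216, 2284 and 2629 gCap cells. Their median depth was 3540.5, 2779, 1765 and 1675 UMIs per cell, with a median of 1874, 1582, 1137.5 and 1072 genes, and their summed UMIs were 7828449, 7660382, 4771113 and 5708245. The gCap cells were therefore deeper in the Bdnf than in the Hgf libraries, and within the Bdnf pair deeper in the control. The whole libraries held between 69403166 and 186701379 UMIs. Mitochondrial genes supplied a median of 6.91, 7.27, 6.25 and 7.62% of UMIs. Between 1 and 9 cell barcodes of gCap cells were shared by any pair of libraries, against 4.55 to 6.58 under random draws of barcodes.

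Among all cells past the limits on UMIs and mitochondrial share, gCap cells made up 11.2% (10.7 to 11.7%, exact Clopper-Pearson 95% interval) in the Bdnf control and 9.32% (8.96 to 9.70%) in the Bdnf iPCKO. The shares were 16.2% (15.6 to 16.8%) in the Hgf control and 16.6% (16.0 to 17.2%) in the Hgf iPCKO. The share was lower in the iPCKO library of the Bdnf pair, whereas the intervals of the Hgf pair overlapped. Because a marker is found more easily in a deep cell, every cell was also thinned to 1500 UMIs in the Bdnf and 700 UMIs in the Hgf libraries before the same criteria were applied. The shares were then 11.7% (11.3 to 12.2%), 9.32% (8.95 to 9.70%), 11.4% (10.9 to 11.9%) and 9.37% (8.92 to 9.83%). With all 4 libraries thinned to 1500 UMIs, which left out 1704 and 3017 shallower cells of the Hgf control and iPCKO, the shares were 12.01% (11.5 to 12.5%), 9.46% (9.09 to 9.84%), 13.3% (12.7 to 13.9%) and 13.2% (12.7 to 13.8%). The iPCKO share of the Bdnf pair thus lay below the control share at each depth, whereas the Hgf pair differed at 700 UMIs and had overlapping intervals at 1500 UMIs and without thinning. Of the 6050, 8807, 6117 and 8214 cells that met the endothelial criterion, 30.9, 25.2, 37.3 and 32.0% were gCap cells without thinning. These totals include cells past the limit on genes of other lineages, so they are not counts of endothelial cells alone. Membership rests on 5 markers, and Sema3c, Aplnr and Glp1r among them were lower in the iPCKO library of each pair. Fewer gCap cells and lower marker levels therefore cannot be told apart in these shares. All shares depend on the dissociation and on the depletion of blood cells, and the spread between mice is unknown.

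**Figure D1:**
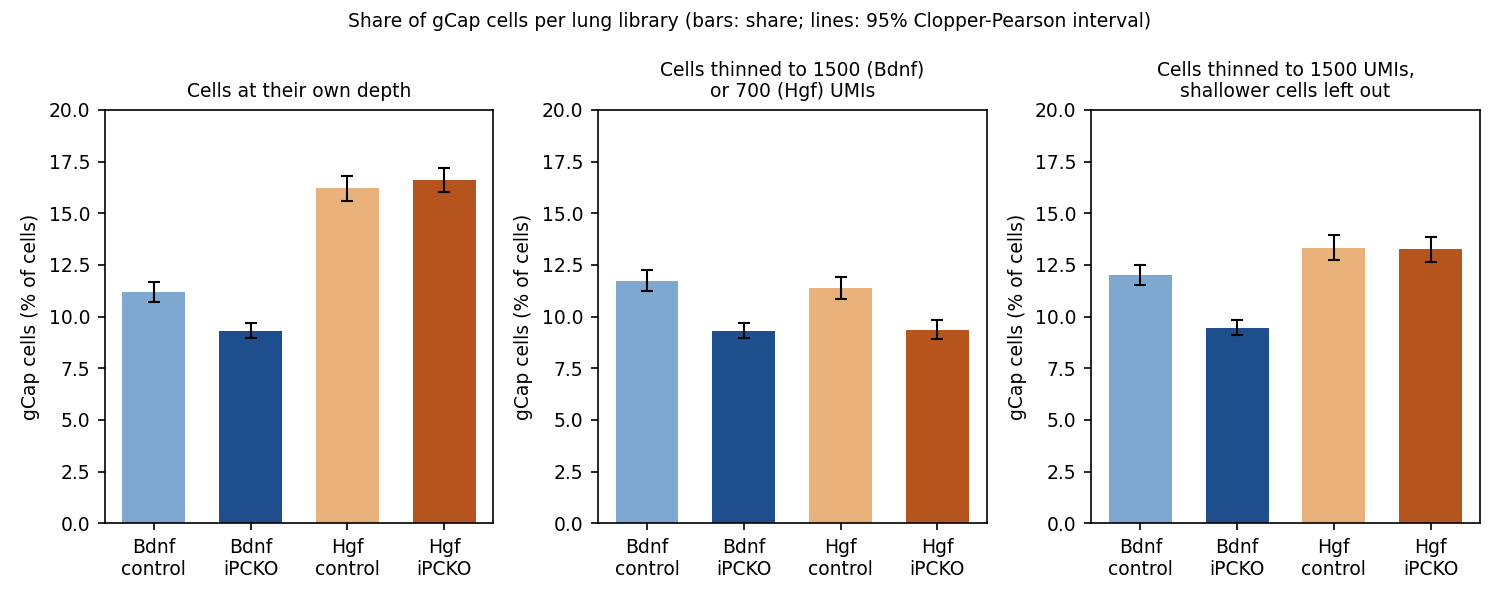
Share of gCap cells among all cells past the limits (% of cells) in the 4 libraries, at the cells' own depth on the left, after thinning to 1500 (Bdnf) or 700 (Hgf) UMIs in the middle and to 1500 UMIs in all on the right. Bars give the share and lines its 95% Clopper-Pearson interval. The Bdnf iPCKO bar lies below its control in each panel, while the Hgf iPCKO bar does so in the middle (9.37 against 11.4%) and has an overlapping interval on the left (16.6 against 16.2%) and right (13.2 against 13.3%).

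The selected cells carried the gCap markers at levels fixed in part by the rule, which are described without a test. UMIs were summed over the gCap cells of a library and divided by all their UMIs, and scaled to 1000000, giving CPM. Gpihbp1, which anchors lipoprotein lipase on the capillary surface, had 580, 549, 850 and 942 CPM, against 20.2 to 38.3 CPM in aerocytes of the same libraries. Kit, the receptor for stem cell factor, had 663, 722, 567 and 579 CPM, against 1.99 to 6.44 CPM in aerocytes. In gCap cells, levels of both genes were close within each pair. Aerocytes were allowed at most 1 UMI in total over the gCap markers, Gja5, Bmx, Slc6a2 and Prox1. Their low levels of Gpihbp1 and Kit were therefore fixed by their selection. The semaphorin gene Sema3c had 1726, 1233, 1394 and 667 CPM, and the apelin receptor gene Aplnr had 234, 155, 270 and 165 CPM. Glp1r, the receptor for glucagon-like peptide 1, had 149 and 95.3 CPM in the Bdnf pair and 862 and 646 CPM in the Hgf pair. Sema3c, Aplnr and Glp1r were thus lower in the iPCKO library of each pair, and Glp1r differed more between the pairs than within them. All 5 markers were found in 17.9, 7.08, 13.1 and 7.46% of gCap cells, and only 2 in 16.1, 28.6, 22.6 and 32.7%, at the depths given above.

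Cells just inside and just outside the rule shared the markers to differing degrees. Cells with 2 gCap markers (302, 633, 516 and 860) had 1578, 1074, 1809 and 1283 CPM of Plvap, the protein of endothelial diaphragms. Otherwise eligible cells with 1 marker (176, 379, 294 and 626) had 1202, 921, 1529 and 1118 CPM of the same gene. The cells outside also had more transcript of Vwf, von Willebrand factor, with 874, 576, 388 and 507 CPM against 268, 240.0, 168 and 237 CPM inside. On the other side of the rule, 412, 427, 455 and 505 gCap cells had 1 UMI of a gene of other endothelial cells, and 217, 190, 183 and 211 cells were left out for having 2.

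The label was checked against genes that the rule did not use. Of 15 further genes of general capillaries, 14 had a higher CPM in gCap cells than in aerocytes in each of the 4 libraries, the exception being Hpgd, which degrades prostaglandins. Aerocytes were selected in the same way, by at least 2 of Car4, Ednrb and Fibin and the limit on gCap markers given above. They comprised 235, 571, 644 and 1171 cells. All 14 aerocyte genes outside the rule, among them the VEGF receptor gene Kdr and the apelin gene Apln, had a lower CPM in gCap cells than in aerocytes in each library. Over 9731 genes, 29.6% were higher and 23.5% lower than in aerocytes by any amount in all 4 libraries. Of 15 arterial, venous and lymphatic genes outside the rule, 10 were also higher in gCap cells than in aerocytes in each library, so this contrast alone does not set gCap cells apart from other endothelium. The other endothelial cells met the endothelial criterion and the limit on genes of other lineages but were neither gCap cells nor aerocytes. They numbered 1939, 2542, 2056 and 3092. Among them, 672, 743, 723 and 1092 had at least 2 gCap markers but more than 2 UMIs of other endothelial genes. The set therefore does not stand for other endothelial types alone. Against this set, 13 of the 15 further gCap genes were higher in each library, beside 33% of all genes. The exceptions were Nrp2, which was lower in each library, and Cxcl12, which was lower in the Bdnf libraries. Of the 15 arterial, venous and lymphatic genes, 6 were higher and 8 lower than in the same set in each library. Of all genes, 33% were higher and 20.1% lower.

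RNA of other lung cells was present in gCap cells and has to be read beside the results. The secretoglobin gene Scgb1a1 of club cells had 1345, 2846, 1615 and 4059 CPM, and the surfactant gene Sftpc of alveolar type 2 (AT2) cells had 2627, 4972, 2624 and 2418 CPM. In barcodes with 10 to 100 UMIs, which hold mostly free RNA, Scgb1a1 reached 14234, 20737, 14571 and 32858 CPM. Of 10 airway genes, summed, gCap cells had 2007, 4490, 2148 and 5216 CPM, and the barcodes of free RNA 16293, 23613, 16712 and 35257 CPM. Airway RNA was thus higher in the iPCKO libraries in both kinds of barcode. The 12 AT2 genes summed to 5924, 9731, 6759 and 5441 CPM in gCap cells, against 15773 to 42444 CPM in free RNA. Alveolar type 1 genes (10) summed to 915, 1274, 1603 and 2302 CPM, and fibroblast and mural genes (18) to 981, 1101, 723 and 947 CPM. In aerocytes the fibroblast and mural genes summed to less, with 292, 417, 225 and 358 CPM. Blood cell genes (18), haemoglobin genes among them, summed to 82.5, 52.7, 179 and 501 CPM in gCap cells. Transcripts made by gCap cells themselves were not separated from RNA of other cells in these sums. Col1a2, Ptprc, Etv5 and Rtkn2 were limited by the rule itself. Past a 2-fold difference between iPCKO and control were 6 of 10 airway genes in the Bdnf pair and 6 of 7 in the Hgf pair, all higher. The part of this RNA in the comparisons below was not tested.

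The targeted genes were examined first. Bdnf (ENSMUSG00000048482.15, chromosome 2 from 109505045 to 109557475 on GRCm39) had 21, 41, 14 and 29 UMIs in gCap cells, or 2.68, 5.35, 2.93 and 5.08 CPM. These levels lay below the 28.4 to 32.6 CPM of free RNA, and mural cells were not examined separately here. In the Bdnf pair the log2 ratio of iPCKO over control was 0.997 (0.20 to 1.83), from 62 UMIs. Non-endothelial cells held 34.6, 32.6, 34.6 and 29.8 CPM of Bdnf, and the Bdnf pair differed there by -0.09 (-0.16 to -0.02) on the log2 scale. Hgf (ENSMUSG00000028864.8, chromosome 5 from 16758041 to 16828178) had 252, 147, 194 and 39 UMIs, or 32.2 (28.3 to 36.4, exact Poisson 95% interval), 19.2 (16.2 to 22.6), 40.7 (35.1 to 46.8) and 6.83 (4.86 to 9.34) CPM. Hgf transcript in gCap cells was therefore lowest in the Hgf iPCKO library, where it lay below the 8.04 CPM of free RNA, and it was above free RNA in the other 3. The log2 ratio of iPCKO over control was -2.57 (-3.11 to -2.07) in the Hgf pair and -0.75 (-1.05 to -0.45) in the Bdnf pair, in which Hgf was not targeted. In the non-endothelial cells the log2 ratios were -1.29 and -0.31, respectively. Pdgfrb, the gene whose promoter drives the CreERT2, had 1.15, 9.79, 3.56 and 20.1 CPM in gCap cells, each below the 13.2, 42.3, 14.6 and 92.0 CPM of free RNA in the same library.

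Of the receptors, Ntrk2 (chromosome 13 from 58954176 to 59281784) had 46.8 (42.1 to 51.8), 50.9 (46.0 to 56.2), 63.3 (56.4 to 70.9) and 14.9 (11.9 to 18.4) CPM. The Bdnf pair did not differ in Ntrk2 beyond counting error (log2 ratio 0.12, -0.09 to 0.33), while in the Hgf pair the log2 ratio was -2.09 (-2.45 to -1.74). Met, the receptor for HGF, had 21.2, 22.7, 11.1 and 8.41 CPM, all below the 56.8 to 205 CPM of free RNA, and is not interpreted.

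Genes were then compared between iPCKO and control across the whole transcriptome, and a gene was called higher or lower past a 2-fold difference when its absolute log2 ratio was at least 1 and the pair held at least 50 UMIs of it. In the Bdnf pair 12848 genes were compared, of which 208 (1.62%) were higher and 184 (1.43%) lower in the iPCKO library. In the Hgf pair 11719 genes were compared, of which 635 (5.42%) were higher and 672 (5.73%) lower. The Hgf control against the Bdnf control, libraries of different floxed alleles and depth, gave 442 (3.62%) higher and 495 (4.06%) lower genes among 12196. The Bdnf pair thus differed in fewer genes than the controls did from each other, and the Hgf pair in more. The median absolute log2 ratio over all genes was 0.20, 0.34 and 0.30, respectively. These percentages are the background against which the counts of each gene group are given.

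Among the groups examined, interferon-stimulated genes held the most genes that were lower in both iPCKO libraries. Of 22 interferon-stimulated genes compared, 10 were lower past a 2-fold difference in the Bdnf iPCKO and 15 in the Hgf iPCKO gCap cells, and none was higher. The whole interval lay past a 2-fold difference in 6 and 13 of them. All 22 had a log2 ratio below 0 in each pair, with medians of -0.97 and -1.33, beside medians over all genes of -0.02 and -0.07. Ifit1, an inhibitor of viral translation, had 41.4 (37.0 to 46.1), 13.8 (11.3 to 16.7), 37.1 (31.8 to 43.0) and 15.4 (12.4 to 19.0) CPM. The control intervals lay above those of both iPCKO libraries. The ubiquitin-like modifier gene Isg15 had 14.7, 6.14, 31.0 and 6.13 CPM. The guanylate-binding protein gene Gbp4 had 254, 74.4, 38.6 and 3.85 CPM, so that it separated the pairs (log2 ratio between controls -2.72) as well as the genotypes. Among the abundant members, Ly6e had 1258, 644, 2253 and 1293 CPM and Ifitm3, which restricts viral entry, had 802, 463, 1375 and 500.3 CPM. Within each pair, both were lower in the iPCKO library. Free RNA held less of these 5 genes than gCap cells did in every library, although Gbp4 in the Hgf iPCKO library, with 3.85 CPM, was near its 3.71 CPM in free RNA.

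The lower interferon-stimulated genes were shared by other cells of the same libraries. Their median log2 ratio was -0.77 and -1.27 in aerocytes, -0.97 and -1.15 in the other endothelial cells, and -0.39 and -0.80 in non-endothelial cells, for the Bdnf and Hgf pair in turn. In the controls the same genes had a median log2 ratio of 0.44 for Hgf over Bdnf, with 1 gene higher and 1 lower past a 2-fold difference.

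Promoters of these genes were searched for the interferon-stimulated response element, spelled GAAA, 2 bases of any kind and GAAA, on both strands of the 250 bases before the transcription start. RefSeq promoters on GRCm38.p6 were matched for 16 of the genes, and 10 of them (62.5%) held the motif. Of all 27025 genes with a promoter, 936 (3.46%) held it in at least 1 promoter. Of 16 clock genes with a promoter, none held it. Of the 7 matched genes that were lower past a 2-fold difference in both iPCKO libraries, 4 (Ifit1, Isg15, Igtp and Gbp7) held the motif and Irf7, Oasl2 and Xaf1 did not. The promoters of Ifit1 and Isg15 are shown because they held it more than once, read 5′ to 3′ along the gene with the motif in capitals. That of Ifit1 covers chr19:34640639-34640888 on the plus strand and holds the motif at 2 places, read from the opposite strand. That of Isg15 covers chr4:156200819-156201068 on the minus strand, with 3 overlapping copies.
Ifit1: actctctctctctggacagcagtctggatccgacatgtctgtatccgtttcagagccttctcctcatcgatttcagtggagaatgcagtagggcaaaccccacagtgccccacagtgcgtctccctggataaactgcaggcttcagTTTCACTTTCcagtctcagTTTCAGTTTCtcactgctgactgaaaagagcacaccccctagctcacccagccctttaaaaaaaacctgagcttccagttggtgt
Isg15: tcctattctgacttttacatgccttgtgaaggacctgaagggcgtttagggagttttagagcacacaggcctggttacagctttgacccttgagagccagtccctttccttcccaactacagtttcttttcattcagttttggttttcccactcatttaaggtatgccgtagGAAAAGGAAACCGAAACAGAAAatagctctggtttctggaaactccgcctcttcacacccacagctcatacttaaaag
A match is a stretch of letters and was not tested for factor binding.

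Antigen presentation genes, many of which respond to interferon, were counted as a separate list. Of 15 genes, 4 were lower past a 2-fold difference in the Bdnf iPCKO and 13 in the Hgf iPCKO library, with medians of -0.64 and -1.70 and none higher. In the Bdnf pair 1 was lower when cells with any UMI of other cells' genes were left out, and 1 had its whole interval past a 2-fold difference. B2m, the light chain of MHC class I (chromosome 2 from 121977957 to 121983594), had 2642, 1287, 2497 and 744 CPM, with log2 ratios of -1.04 (-1.07 to -1.003) and -1.75 (-1.80 to -1.70). The control libraries differed little in B2m, while each iPCKO library lay below both of them. The class I heavy chain genes H2-K1 (1147, 574, 1817 and 723 CPM) and H2-D1 (3678, 1932, 2949.8 and 1368 CPM) were lower in the iPCKO library of each pair. Psmb9, a subunit of the immunoproteasome, had 31.4, 14.9, 59.9 and 18.4 CPM. Other cells of the same libraries shared the lower levels. The list's medians were -0.46 and -1.31 in aerocytes, -0.67 and -1.31 in the other endothelial cells, and -0.52 and -0.69 in non-endothelial cells.

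Genes of MHC class II were examined within this list. H2-Ab1 had 45.1, 32.2, 94.9 and 12.1 CPM, with log2 ratios of -0.48 (-0.72 to -0.25) and -2.97 (-3.36 to -2.61). Cd74, the invariant chain, had 62.6, 70.0, 42.1 and 8.06 CPM, with log2 ratios of 0.16 (-0.02 to 0.34) and -2.39 (-2.88 to -1.92). H2-Aa (39.7, 33.3, 67.5 and 8.76 CPM) had log2 ratios of -0.26 and -2.95, and H2-Eb1 (13.8, 14.9, 21.4 and 3.50 CPM) of 0.11 and -2.61. These 4 genes were past a 2-fold difference in the Hgf pair and not in the Bdnf pair, and the difference between the pairs was not tested. Free RNA had 310, 199, 237 and 27.1 CPM of Cd74, above the gCap level in every library and lowest in the Hgf iPCKO library too, and the part of this RNA in the result was not tested. H2-Ab1, H2-Aa and H2-Eb1 also lay below free RNA in each library. Ciita, the master regulator of class II genes, had 78, 25, 49 and 1 UMIs and a log2 ratio of -1.61 (-2.32 to -0.94) and -5.87 (-11.21 to -3.33).

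**Figure D2:**
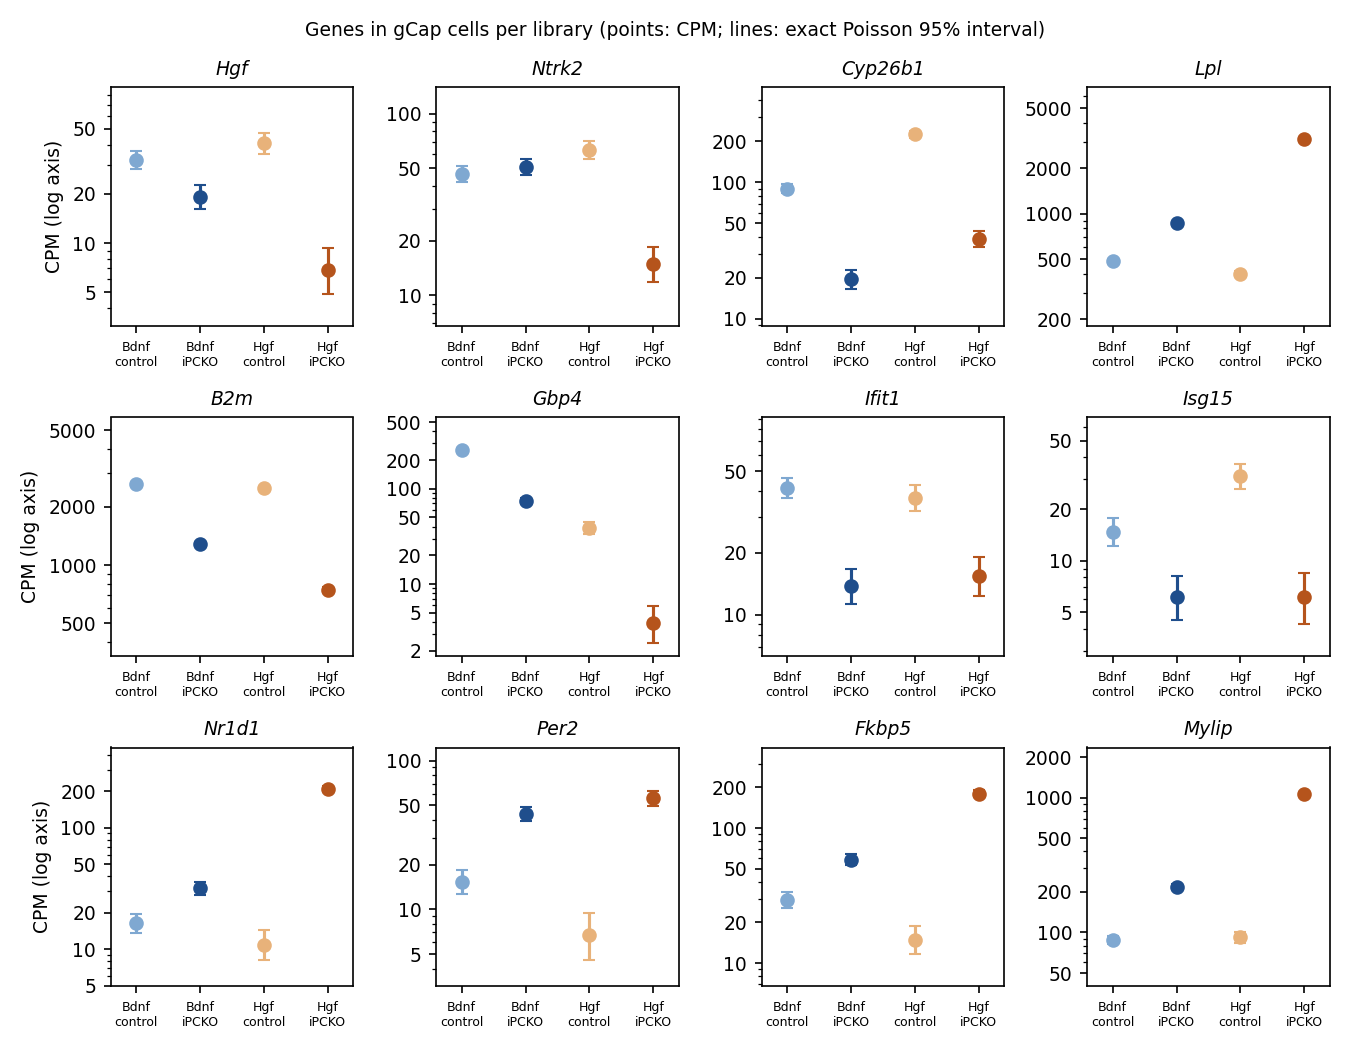
CPM of 12 genes in gCap cells of the 4 libraries on log axes whose ranges differ between panels, with exact Poisson 95% intervals that are hidden by the points where short. B2m, Gbp4, Ifit1, Isg15 and Cyp26b1 lie lower and Lpl, Nr1d1, Per2, Fkbp5 and Mylip higher in the iPCKO library of each pair, whereas Ntrk2 is lower in the Hgf iPCKO library (14.9 CPM) and not in the Bdnf iPCKO library (50.9 CPM).

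Circadian clock genes showed the opposite direction. In this feedback loop BMAL1 with CLOCK or NPAS2 activates Per, Cry, Nr1d and other genes, whose products repress it. Of 17 clock genes, 7 were higher past a 2-fold difference in the Bdnf iPCKO library and none lower (median log2 ratio 0.88), and 10 were higher and 3 lower in the Hgf iPCKO library (median 1.61). Of the higher genes, 3 and 9 had their whole interval past a 2-fold difference, and in cells with at least 3 markers the Bdnf pair had 9 higher and 1 lower. The same 7 genes were higher in both pairs: Per2, Per3, Cry2, Nr1d2, Dbp, Tef and Hlf. Per2 had 15.3 (12.7 to 18.3), 43.7 (39.2 to 48.7), 6.71 (4.59 to 9.47) and 55.7 (49.8 to 62.2) CPM. Nr1d1, encoding the repressor REV-ERB alpha, had 16.4, 31.7, 10.9 and 209 CPM, with log2 ratios of 0.96 (0.64 to 1.28) and 4.26 (3.86 to 4.69). Both iPCKO libraries lay above both controls in these 2 genes. Free RNA had 84.0, 162, 58.0 and 199.9 CPM of Per2 and 45.3, 59.5, 32.2 and 186 CPM of Nr1d1, so that it exceeded the gCap level in every library for Per2 and in 3 of 4 for Nr1d1. Of the activators, Arntl, encoding BMAL1, had 29.5, 20.8, 26.4 and 8.93 CPM and Npas2 had 12.4, 6.27, 10.1 and 1.58 CPM. Both were lower past a 2-fold difference in the Hgf pair, whereas Clock had 90.4, 127, 70.0 and 85.8 CPM. The pattern was not restricted to gCap cells, since the list's median log2 ratio in non-endothelial cells was 0.47 and 1.48. Of 16 clock genes with a promoter, 5 (31.25%) held the E-box CACGTG in the 250 bases before the start, against 1854 of 27025 (6.86%) of all genes and 0 of 16 interferon-stimulated genes. The 5 were Bhlhe41, Ciart, Cry1, Per1 and Tef. Of the 7 genes higher in both pairs 6 had a matched promoter, and 1 of these, Tef, held the motif.

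Genes of the glucocorticoid and fasting response were in part higher. In the Bdnf iPCKO library 2 of 14 were higher past a 2-fold difference and none lower (median 0.56), and in the Hgf iPCKO library 7 were higher and 1, Sgk3, lower (median 0.99), the last within 2-fold under median-of-ratios scaling. Fkbp5, a co-chaperone induced by the glucocorticoid receptor, had 29.4, 58.4, 14.9 and 179 CPM, with log2 ratios of 0.99 (0.76 to 1.23) and 3.59 (3.24 to 3.96). Free RNA held more Fkbp5 than gCap cells in every library. Ddit4, an inhibitor of mTORC1, had 67.1, 121, 111 and 471 CPM, and Txnip, which inhibits glucose uptake, had 513, 697, 387 and 1449 CPM. The metallothionein gene Mt1 was higher in both pairs, with 31.9, 91.8, 45.3 and 204 CPM, and Mt2 with 55.9, 116, 25.6 and 123 CPM. In non-endothelial cells the medians of the list were 0.49 and 1.01, close to those in gCap cells.

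Among the further gCap genes, Lpl had the largest log2 ratio in the Hgf pair. Lpl, lipoprotein lipase (chromosome 8 from 69284603 to 69360100), had 488 (473 to 504), 865 (845 to 886), 396 (379 to 415) and 3126 (3081 to 3173) CPM. Lpl was thus higher in both iPCKO libraries than in both controls, at a log2 ratio of 0.83 (0.77 to 0.88) in the Bdnf and 2.98 (2.91 to 3.05) in the Hgf pair. In non-endothelial cells its log2 ratios were 0.45 and 0.74, in the other endothelial cells 1.11 and 3.37. Free RNA had 44.1, 85.1, 42.7 and 335 CPM of Lpl. The partner Gpihbp1 had log2 ratios of -0.08 and 0.15. Of the lipid uptake genes, none of 7 was past a 2-fold difference in the Bdnf pair, and of 6 in the Hgf pair Lpl was higher and Fabp4, a fatty acid binding protein, lower (10.1 and 2.80 CPM). The fatty acid transporter gene Cd36 had 4276, 3829, 4557 and 2991 CPM, and Mylip, which targets the LDL receptor for degradation, had 88.0, 217, 92.4 and 1072 CPM. Mylip was higher past a 2-fold difference in both pairs, with log2 ratios of 1.30 (1.17 to 1.43) and 3.54 (3.396 to 3.68).

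Of the 15 further gCap genes, 1 was lower past a 2-fold difference in the Bdnf iPCKO library and none higher (median -0.22), and 5 were lower and 1, Lpl, higher in the Hgf iPCKO library (median -0.46). Plcb1, a phospholipase C downstream of G protein-coupled receptors, was lower in both pairs, with 572, 281, 350 and 99.2 CPM, although free RNA reached 168 to 483 CPM. Its log2 ratio in the Bdnf pair was -1.02 (-1.10 to -0.95), and -0.99 in cells with at least 3 markers, short of a 2-fold difference. The chemokine gene Cxcl12 had 473, 284, 507 and 233 CPM, the collagen receptor gene Itga1 had 1229, 769, 1568 and 662 CPM, and the matrix gene Hmcn1 had 412, 290, 407 and 198 CPM. Free RNA had 244 to 443 CPM of Hmcn1. In these 3 genes the control levels of the pairs were closer to each other than to their iPCKO libraries. Plvap had 1446, 917, 1627 and 1133 CPM and the lectin-like receptor gene Cd93 had 2624, 2330, 2165 and 1298 CPM, both within 2-fold. Ptprb, the phosphatase VE-PTP, had 4567, 4677, 4784 and 4444 CPM and was nearly level. Of the 12 aerocyte genes compared in gCap cells, none was past a 2-fold difference in the Bdnf pair and 1, Apln, was lower in the Hgf pair (medians -0.06 and -0.09). Of 13 arterial, venous and lymphatic genes 1, Cxcr4, was lower in the Hgf pair (medians 0.13 and 0.09).

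Cyp26b1, which degrades retinoic acid (chromosome 6 from 84548396 to 84570890), was among the genes with the largest differences in both pairs. It had 89.7, 19.5, 226 and 38.7 CPM, with log2 ratios of -2.20 (-2.47 to -1.95) and -2.54 (-2.76 to -2.33). Each iPCKO library was thus below both controls. Aerocytes had 1.99 to 10.9 CPM and non-endothelial cells 0.840 to 3.56 CPM, and in the other endothelial cells the log2 ratios were -1.28 and -0.61.

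Angiogenic and growth factor receptors were near level in the Bdnf pair, in which none of 22 was past a 2-fold difference (median -0.06). In the Hgf iPCKO library 3 were lower (median -0.32): Ntrk2, Calcrl and Cxcr4. Calcrl, which forms the adrenomedullin receptor with RAMP2, had 3853, 3001, 3329 and 1011 CPM, with log2 ratios of -0.36 and -1.72. Its partner Ramp2 had 1968, 1905, 2474 and 3947 CPM and so was highest in the library in which Calcrl was lowest. Cxcr4, the receptor of CXCL12, had 138, 84.5, 77.5 and 23.1 CPM. The VEGF receptor genes Kdr (log2 ratios 0.31 and -0.14) and Flt1 (0.28 and 0.18) and the BMP receptor gene Bmpr2 (0.02 and -0.10) stayed within 2-fold. Of the members, Ednrb was limited by the rule itself, and Tie1 was among its endothelial genes.

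Among 22 secreted factors compared in the Bdnf pair, 1, Tgfb1, was higher in the iPCKO library (39.3, 81.1, 45.5 and 43.6 CPM over the 4 libraries) and none lower. Of 21 compared in the Hgf pair, 2 were higher and 3 lower. The insulin-like growth factor binding protein gene Igfbp3 had 30.4, 54.7, 7.13 and 51.2 CPM and the matricellular gene Ccn2 had 87.2, 91.1, 67.3 and 215 CPM. Lower in the Hgf iPCKO library were Hgf, Cxcl12 and Apln, the last with 48.5, 33.0, 19.3 and 3.85 CPM. The BMP ligand gene Bmp6 (422, 347, 523 and 401 CPM) and the Notch ligand gene Dll4 (317, 240.3, 431 and 345 CPM) were within 2-fold.

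Endothelial transcription factors differed in the Hgf pair. Of 21 compared, 5 were lower and none higher (median -0.39), whereas in the Bdnf pair 1 of 23, Klf4, was higher and none lower (median 0.04). Klf2, which responds to shear stress, had 428, 612, 1676 and 693 CPM, so its control levels differed more (log2 ratio 1.97) than either pair. Ets1 had 574, 484, 373 and 139 CPM, and Epas1, encoding HIF-2 alpha, had 2720, 2846, 3028 and 4726 CPM. Bcl6b, Lmo2 and Meox1 were the other lower genes, with log2 ratios of -1.55, -1.12 and -1.84 in the Hgf pair. Foxf1, required for lung capillary formation, had 999, 1192, 1459 and 834 CPM.

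Structural genes were mostly within 2-fold. None of 9 genes of caveolae and the diaphragm was past a 2-fold difference in either pair, though 9 and 8 of them had a log2 ratio below 0. Their medians were -0.35 and -0.24, beside -0.02 and -0.07 over all genes. Among basement membrane genes 2 of 13, Col15a1 and Lama4, were lower in the Hgf iPCKO library and none of 15 in the Bdnf iPCKO library. Col15a1, a collagen linking basement membrane to matrix, had 61.4, 30.8, 84.9 and 3.50 CPM, with log2 ratios of -0.996 (-1.23 to -0.77) in the Bdnf pair, just short of a 2-fold difference, and -4.60 (-5.33 to -3.95) in the Hgf pair. In non-endothelial cells the ratios of Col15a1 were -0.06 and -3.83. Of junction and adhesion genes 3 of 15, Icam2, Jam3 and Emcn, were lower in the Hgf pair, with log2 ratios of -1.09, -1.11 and -1.06. None of these calls remained when cells with any UMI of other cells' genes were left out (-0.97, -0.79 and -0.998). In the Bdnf pair 1 of 16, Vcam1, was lower, a call from 193 UMIs that turned when cells with any UMI of other cells' genes were left out (log2 ratio 1.21). Pecam1 and Cldn5 of this list were among the endothelial genes of the rule. None of 12 Notch genes was past a 2-fold difference in either pair (medians -0.01 and 0.13).

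Immediate-early genes, which respond within minutes to stimuli and to tissue dissociation, lay above the control in the Bdnf iPCKO library. All 18 had a log2 ratio above 0 there, 5 of them past a 2-fold difference (median 0.69) and 2 with the whole interval past it, whereas the Hgf pair had 1 higher and 1 lower (median -0.05), the latter within 2-fold under median-of-ratios scaling. The rise was not restricted to gCap cells. The list's median in the Bdnf pair was 0.81 in aerocytes, 0.54 in the other endothelial cells and 0.42 in non-endothelial cells. Fos had 1372, 2680, 1909 and 1914 CPM and Fosb had 586, 1266, 842 and 872 CPM. The control libraries also differed, with 7 genes higher in the Hgf control (median 0.93), so the Bdnf control was the lowest of the 4 libraries in both genes. Of 13 heat shock chaperones none was past a 2-fold difference in either pair, and 6 were lower in the Hgf than in the Bdnf control (median -0.95).

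gCap cells with transcripts of mitotic genes were rare. At least 2 of 7 mitotic genes were detected in 22 of 1872 gCap cells (1.18%, 0.738 to 1.77%) of the Bdnf control, in 6 of 2216 (0.271%, 0.0994 to 0.588%) of the Bdnf iPCKO, in 1 of 2284 (0.0438%, 0.00111 to 0.244%) of the Hgf control and in 1 of 2629 (0.0380%, 0.000963 to 0.212%) of the Hgf iPCKO. In the other endothelial cells of the same libraries the share was 1.03, 0.629, 0.195 and 0.259%. Its intervals in the Bdnf pair, 0.631 to 1.59% and 0.360 to 1.02%, overlapped there, whereas those of gCap cells did not. Aerocytes had 0, 1, 0 and 1 such cells. In non-endothelial cells the share was 0.654, 0.642, 0.652 and 1.18%. The 22 cells had a median of 6536 UMIs, against 3527.5 in the other gCap cells of the library, and a deeper cell shows more genes. Mki67, a marker of cycling cells, had 236, 19, 8 and 4 UMIs, and Top2a had 296, 41, 3 and 10. Of 21 genes of S phase and mitosis, 8 were lower past a 2-fold difference in the Bdnf iPCKO library and none higher (median -0.43), and among the 8 with at least 200 UMIs 2 were lower. The list's median in the Bdnf pair was -0.54 in the other endothelial cells and 0.04 in non-endothelial cells. In aerocytes it was 0.51, but from only 235 and 571 cells and without a minimum of UMIs there. Genes with no UMI in aerocytes of a library were left out of it, so no rise is read from this value. In the Hgf pair 2 of 11 were higher and none lower (median -0.07). The controls differed more, with 12 of 21 lower in the Hgf control (median -1.63). The Mki67 UMIs came from 22, 9, 3 and 4 cells. Of 12 cyclin D and cell cycle inhibitor genes, none was past a 2-fold difference in the Bdnf pair, and 2 were higher and 1 lower in the Hgf pair. Ccnd1, encoding cyclin D1, had 215, 143, 157 and 45.0 CPM, and its log2 ratio in the Hgf pair was -1.80 (-2.01 to -1.59).

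Imprinted growth genes are high in fetal tissue and decline after birth. Of 10 compared, 4 (Igf2, H19, Meg3 and Peg3) were higher in the Bdnf iPCKO library and none lower (median 0.57), and 1, Peg3, was higher and 1, Mest, lower in the Hgf iPCKO library (median 0.04). In the Bdnf pair 2 were higher when cells with any UMI of other cells' genes were left out, and 2 had their whole interval past a 2-fold difference. Peg3 had 97.1, 212, 63.7 and 162 CPM, beside 65.2 to 200.1 CPM in free RNA. The list summed to 442, 632, 367 and 429 CPM in gCap cells. In free RNA it summed to more in every library, with 758, 1060, 694 and 972 CPM. The part of this RNA in the result was not tested. H19, a non-coding RNA, had 10.5, 29.6, 42.3 and 26.8 CPM, from 24, 47, 26 and 38 cells.

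**Figure D3:**
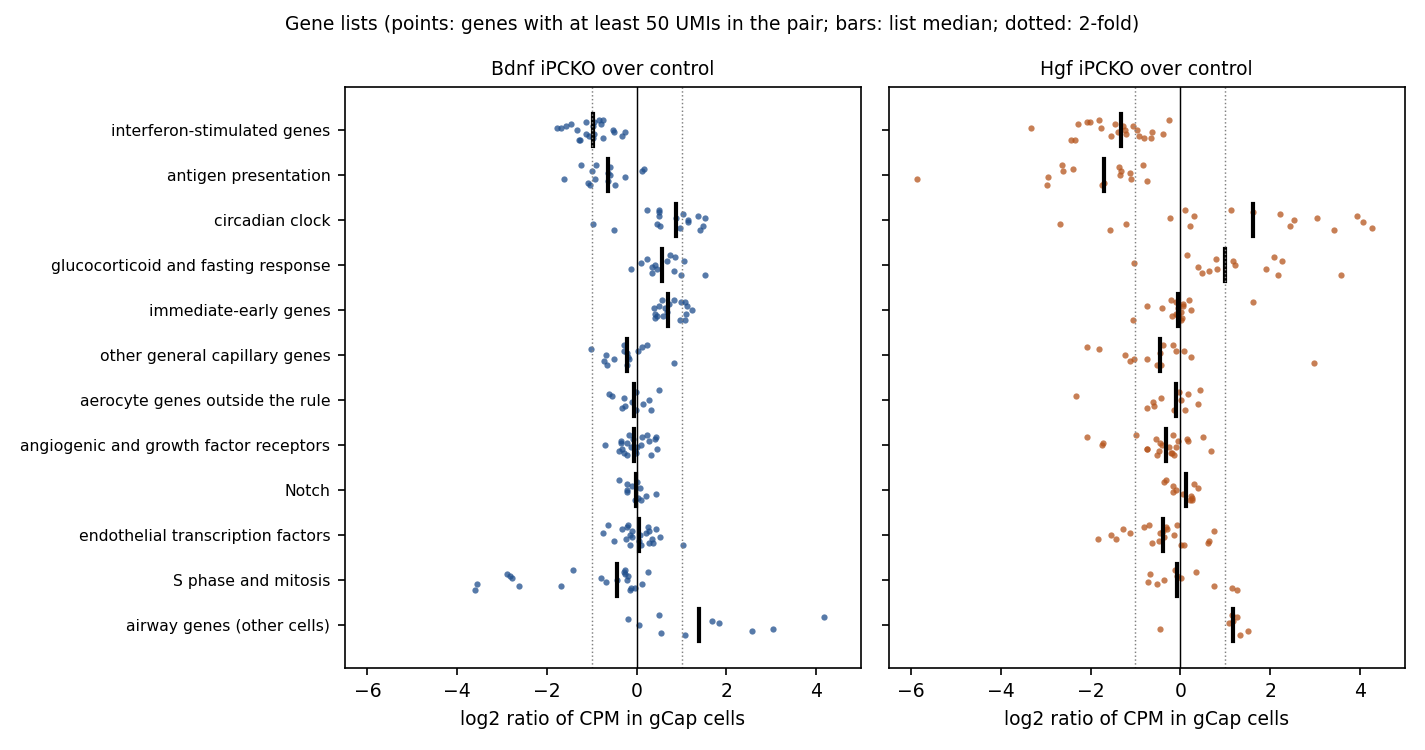
Log2 ratio of CPM in gCap cells, iPCKO over control, for the genes of 12 groups in the Bdnf pair on the left and the Hgf pair on the right. Points are genes with at least 50 UMIs in the pair, black bars are group medians, and dotted lines mark a 2-fold difference. Interferon-stimulated genes lie left of 0 (medians -0.97 and -1.33), clock genes mostly right of it (medians 0.88 and 1.61), and Notch genes near 0 (medians -0.01 and 0.13).

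The genes with the largest differences, taken across the whole transcriptome by the interval end nearest to 0, followed these groups in part. In the Bdnf iPCKO library the list of higher genes was led by transcripts of secretory airway cells (Clca1, Reg3g, Tff2, Muc5b, Scgb3a1 and Pigr). Clca1 had 299 UMIs there, against 4 in the control, but they came from 9 cells, of which 1 held 200. Reg3g had 389 UMIs in 28 cells, 256 of them in 1 cell. These values rest largely on single cells, and the part of the airway RNA given above in them was not tested. The lower list held mitotic genes (Mki67, Ccna2, Hmmr, Top2a, Ube2c and Prc1), interferon-inducible genes (Ifi44 and Ifi206), Cyp26b1 and the small nuclear RNA gene Rnu2-10.

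In the Hgf iPCKO library the largest higher values were those of Doc2b, a calcium sensor of vesicle release, with 6, 11, 4 and 458 UMIs, the last spread over 368 cells. In the other endothelial cells, which include cells with gCap markers, Doc2b had 1.46, 3.87, 3.21 and 86.1 CPM. It was therefore not confined to the selected gCap cells of that library. Nr1d1, Dbp, Klf15, Fkbp5, Mylip and Fam107a, a gene induced by glucocorticoids, were also on the list, as were Nxpe4 and Calca. Calca had 79 UMIs in 4 cells, 74 of them in 1 cell. The lower list held 6 interferon-inducible genes (Gbp2b, Ifi44, Mndal, Ifi203, Gbp4 and the class II regulator Ciita), Col15a1, Tmem252 and the chemokine genes Ccl3 and Ccl4, of whose 67 and 73 UMIs in the Hgf control 63 and 69 lay in 1 cell.

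Of the 11445 genes compared in both pairs, 64 (0.559%) were higher and 62 (0.542%) lower past a 2-fold difference in both iPCKO libraries. The 64 were 47.8% of the 134 higher genes of the Bdnf pair and 11.7% of the 549 of the Hgf pair, and the 62 were 63.3% of 98 and 9.41% of 659 lower genes. Interferon-stimulated genes supplied 10, antigen presentation genes 4 and the further gCap genes 1 of the 62. Clock genes supplied 7 and glucocorticoid and fasting genes 2 of the 64. Airway genes also supplied 2, fibroblast and mural genes 2 and imprinted growth genes 1 of the 64. The largest joint differences among the lower genes were those of Ifi44 (45.6, 7.05, 39.0 and 2.28 CPM), Cyp26b1, the progesterone receptor gene Pgr (8.81, 2.35, 14.9 and 1.93 CPM) and Stmn2, a regulator of microtubules (146, 41.4, 97.0 and 18.6 CPM). Higher in both were the laminin gene Lamc3 (2.81, 14.0, 3.98 and 40.8 CPM), Hif3a (2.30, 9.14, 1.05 and 19.6 CPM), the deubiquitinase gene Uchl1 (6.51, 21.7, 6.50 and 22.6 CPM) and Lhfpl3 (49.4, 160.0, 39.0 and 289 CPM). Cyp2a5, Sult1d1, Pigr, F3 and Retnla completed this list with Pdgfrb. The Hgf log2 ratio of Retnla, 1.78, was -0.11 when each cell's CPM was averaged over cells. These 6 genes lay below free RNA in every library, except Cyp2a5 in the Hgf iPCKO library (9.64 against 8.41 CPM) and Sult1d1 in the Bdnf iPCKO library (10.3 against 8.34 CPM).

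The comparison with aerocytes is the contrast that the rule itself made and is given as a description. Of 9731 genes, 357 (3.67%) were higher and 232 (2.38%) lower past a 2-fold difference in gCap cells in all 4 libraries, from which nothing is read. The largest values were those of Cd93, with 22.9, 77.4, 38.2 and 63.6 CPM in aerocytes against the levels above, and the integrin gene Itga6, with 689, 619, 232 and 193 CPM in gCap cells and 13.9, 33.2, 10.2 and 10.5 CPM in aerocytes. Also in this list were Lrrc32, Wfdc1, Lpl, Gpr182, Plvap, the natriuretic peptide clearance receptor gene Npr3, the connexin gene Gja4 and Fam181b. Aerocytes exceeded gCap cells most in Begain, Chst1, Sirpa, Chst2 and Plau, the last encoding urokinase. Log2 ratios of the higher list were larger in the Bdnf control, the library with the fewest aerocytes, than in the Hgf iPCKO library for each gene with a ratio in both.

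**Figure D4:**
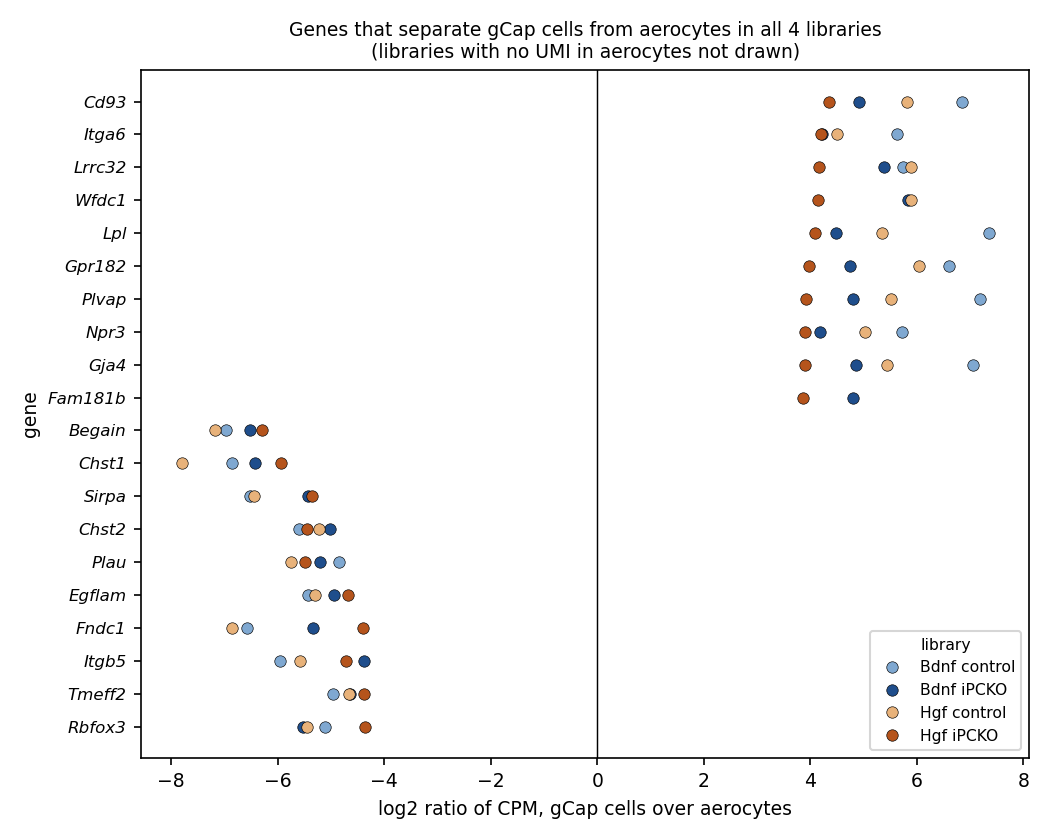
Log2 ratio of CPM, gCap cells over aerocytes, for 10 genes higher and 10 lower in gCap cells in each of the 4 libraries. Each point is 1 library, and a library with no UMI in aerocytes is not drawn. The genes were taken for the lowest of their 4 values, and the Hgf iPCKO library has the smallest ratio for the 10 higher genes.

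Variation among gCap cells of 1 library was measured as the Fano factor, the variance of a gene's UMIs over its mean, after thinning to 1500 or 700 UMIs per cell. Over 2481 genes with a mean of at least 0.05 UMIs in each library the median was 1.15, 1.15, 1.08 and 1.08, where 1 is expected of counting alone. The 10 genes with the highest values, ranked by the lowest of the 4, were mostly genes of airway and AT2 cells, with Scgb1a1 (29.8, 55.6, 26.8 and 29.0), Sftpc (42.3, 46.8, 18.4 and 17.7) and Lyz2 (12.2, 15.3, 9.29 and 6.60) at the top. The others were Cyp2f2, Scgb3a2, Cbr2, Sftpa1, Sftpb, the nuclear RNA Malat1 (14.9, 9.53, 5.68 and 4.03) and Sipa1l3 (2.97, 3.66, 3.398 and 3.76). Ranked below them were the immediate-early gene Egr1 (5.12, 5.20, 2.69 and 2.53), the hyaluronan receptor gene Lyve1 (3.60, 3.94, 2.15 and 2.74), Fos (4.52, 5.73, 2.45 and 2.13) and Cxcl12 (3.66, 4.23, 2.38 and 2.08). For Klf4 the values were 2.25, 3.15, 1.82 and 1.74. The libraries of the Bdnf pair were thinned to more UMIs, so values are compared within a pair and not between pairs.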

How the data were processed

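Single-cell libraries were made by the study with the BD Rhapsody whole transcriptome assay. Per the labels and methods, the authors aligned reads to GRCm39 with STARsolo (STAR 2.7.10a), with no cell filter at that step. Reads of multiple mapping were shared among genes, so the deposited values are estimated counts (UMIs). For its own analysis the study then filtered barcodes by complexity, mitochondrial content and unusually high counts. The Gencode release is given differently in different places of the study. Between 8.50 and 9.95% of entries were not whole, and each entry was rounded before the genes of the rule were counted and UMIs were summed over cells. Reads shared among near-identical genes make those genes uncertain.

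The gCap rule was applied per library. Aerocytes (at least 2 of Car4, Ednrb and Fibin, and the limit on gCap markers given above) and other endothelial cells were also selected per library. Members and gene lists were chosen with earlier results of these data known. UMIs were summed over cells and given as CPM with exact Poisson intervals and conditional exact intervals of log2 ratios (scipy 1.17.1, numpy 2.4.6). Free RNA was measured in barcodes with 10 to 100 UMIs. List medians in other cells used the genes compared in gCap cells, with no minimum of UMIs in those other cells. With 1 library per group no test was run, and no spread between mice is known. Named were, of each list, the members with the most UMIs and the largest log2 ratios. In each direction, the 10 genes of a pair whose interval end nearest to 0 lay farthest from it were also named. So were the 10 with the largest smaller log2 ratio over both pairs, and the 10 with the largest lowest ratio to aerocytes. The 10 most variable genes and the targeted genes were added. Genes of the rule, mitochondrial, ribosomal and predicted genes and repeated symbols were left out of these. Other members of lists were named after their values were seen. Doublets were called with Scrublet in scanpy 1.11.5 (expected rate 0.1, 30 components), with the lower automatic threshold of each pair (0.2985 and 0.4117) used for both of its libraries in place of 0.4208 in the Bdnf iPCKO and 0.8184 in the Hgf control. This marked 30, 60, 26 and 36 gCap cells, which were kept. Promoters were RefSeq sequences on GRCm38.p6, and gene positions were from GRCm39. The procedure was checked on simulated counts. Brain libraries were not used here. Some genes of the lists are not reported here.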

Additional observations from a re-analysis of the deposited data

Results flagged for a closer look

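Atf3, a stress-induced transcription factor and immediate-early gene, was past a 2-fold difference in opposite directions in the pairs. It had 44.8, 95.2, 89.9 and 43.4 CPM in gCap cells of the Bdnf control, Bdnf iPCKO, Hgf control and Hgf iPCKO library. The log2 ratio of iPCKO over control was 1.09 (0.90 to 1.27) in the Bdnf pair and -1.05 (-1.28 to -0.82) in the Hgf pair. Neither interval lay wholly past a 2-fold difference, and the Hgf value was -0.98, within 2-fold, under median-of-ratios scaling. Each pair is 1 library against 1, and the difference between the pairs was not tested.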

How the results depend on the processing

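No paired analysis was possible because each group is 1 library and the groups share no replicate pairs. For the same reason no library could be left out. The share of gCap cells, iPCKO over control, was 0.834 in the Bdnf and 1.03 in the Hgf pair. With at least 3 of the 5 markers it was 0.711 and 0.892. In the Hgf pair it was 0.857 as a share of the cells that met the endothelial criterion and 0.822 in cells thinned to 700 UMIs. With all libraries thinned to 1500 UMIs, an alternative chosen after seeing the data, it was 0.788 and 0.994.

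With a minimum of 20 UMIs in place of 50, the genes past a 2-fold difference numbered 503 higher and 412 lower in the Bdnf pair, 1089 higher and 1004 lower in the Hgf pair, and 757 higher and 1009 lower between the controls. With at least 200 UMIs they were 66 and 49, 269 and 306, and 170 and 147. Counting a gene only where its whole interval lay past a 2-fold difference gave 50 and 51, 243 and 265, and 155 and 180.

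Of the ratios of listed and named genes, 3 changed direction. Vcam1 in the Bdnf pair was 1.21 (reported -1.12) without cells that held a UMI of other cells' genes. With the mean over cells of each cell's CPM, Bpifa1 in the Bdnf pair was -0.35 and Retnla in the Hgf pair -0.11. The cause was not tested. Leaving out cells with any such UMI moved 178 of 753 values by more than their interval and took 29 back within 2-fold. The mean over cells moved 166 of 762 (19 back within), 3 markers 71 of 761 (18), median-of-ratios scaling 60 (9), a minimum of 1500 UMIs 58 of 366 (4) and leaving out doublets 37 of 762 (7). By the interval end, 56 lay within 2-fold. Without such UMIs Clca1 was 0.50 (reported 6.26) and Reg3g 1.32 (reported 4.18) in the Bdnf pair. The median of the interferon-stimulated genes ranged from -0.996 to -0.91 in the Bdnf and from -1.51 to -1.26 in the Hgf pair, and that of the clock genes from 0.76 to 1.001 and from 1.61 to 2.44, the interval ends left aside. By the interval end nearest to 0 these medians were -0.76 and -1.09, and 0.45 and 1.23. Over the other alternatives the genes higher past 2-fold numbered 2 to 4 (glucocorticoid and fasting, Bdnf pair), 4 to 6 and 3 to 6 (airway) and 5 to 7 (immediate-early, Bdnf pair), and the lower basement membrane genes of the Hgf pair 1 to 3. Fewer than 50 UMIs of a gene in a pair leave it uncompared at this depth.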

Other observations

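Besides Atf3, 5 genes were higher past a 2-fold difference in the Bdnf iPCKO and lower in the Hgf iPCKO library, namely Apold1, Cthrc1, Fstl4, Garin4 and Mex3a. Apold1, an endothelial early response gene, had 8.69, 22.8, 38.4 and 16.6 CPM in the Bdnf control, Bdnf iPCKO, Hgf control and Hgf iPCKO library. Cd109, Pclaf and Serpina3g were lower in the Bdnf iPCKO and higher in the Hgf iPCKO library. These genes were chosen after their values were seen, and the differences between the pairs were not tested.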
